A study of Mus musculus with 35 samples.

Results

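Collagen chain genes were followed through liver tumors, non-tumorous liver (NTL) and control liver of 3 mouse models of liver cancer, measured on 35 arrays with 1 array per sample. The members are all genes whose symbol is Col, a number, a and a number, and that have a probe set annotated to them alone, with the brightest such probe set taken for each gene. There were 42 of them among 18820 genes: 11 fibrillar collagens, 6 basement membrane collagens (the type IV chains) and 25 others. Col7a1 and Col9a3 were not members, because their probe sets are also annotated to Mir711 and to Tcfl5. In the DEN model, mice were injected intraperitoneally with the carcinogen diethylnitrosamine (DEN), 10 mg per kg at 15 days of age, and were looked at for tumors at 9 months. It gave 5 tumor and 5 NTL arrays, with 5 arrays from untreated mice matched for sex and age as controls. In the LT model, tg1223 mice, which express lymphotoxin LTα and LTβ in the liver, were followed for 12 months, and gave 3 tumor and 5 NTL arrays. In the MYC model, mice carried TRE-MYC together with LAP-tTA, whose liver-specific promoter drives the activator, and doxycycline chow (200 mg per kg) held MYC off until 8 weeks of age. It gave 5 tumor and 3 NTL arrays, and the mouse identifiers of these NTL arrays begin with WT. Transgene-negative mice, which the labels call sex- and age-matched, gave 4 control arrays that serve both the LT and the MYC model. The labels name no strain.

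Collagens are proteins of the extracellular matrix built from 3 chains wound into a triple helix. Fibrillar collagens such as types I, III and V form the cross-linked fibers that accumulate in liver scars, where activated stellate cells and portal fibroblasts are their main source. Type IV chains form the sheet-like network of basement membranes, which the normal liver sinusoid largely lacks and which new vessels and bile ducts carry. Other collagens coat fibrils (the FACIT group), form beaded filaments around cells (type VI), short-chain networks (types VIII and X), cell surface proteins, or the multiplexins of basement membrane zones.

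Values are log2 signals, so a difference of 1 is a 2-fold difference, and a difference is called where its p-value from limma, adjusted over all 18820 genes by the Benjamini-Hochberg method, is under 0.05. Errors beside differences are standard errors (SE) of that fit, errors beside means are standard deviations (SD), and p-values are two-sided. Array medians lay between 5.59 and 5.73, no pair of arrays was identical, and every member's group means exceeded the lower quartile of its arrays. The summed signal of 8 hepatocyte markers lay between 15.9 and 16.3 on all arrays, on the log2 scale. Its mean was lower in tumors than in NTL in each model: 16.11 against 16.20 in DEN, 16.07 against 16.22 in LT and 16.08 against 16.28 in MYC. In MYC tumors it was 16.03 to 16.16, without overlap with the 16.28 to 16.29 of MYC NTL. Of the tumor arrays, DEN replicates 1 and 4, DEN replicates 3 and 5, and LT replicates 1 and 2 carry mouse identifiers with a common stem, so some may come from the same animal. No stem is common to tumor and NTL arrays. Xist was high (11.7 to 12.2) on 9 arrays, which include all 3 LT tumor and 4 of the 5 LT NTL arrays, and low (3.54 to 6.24) on all other arrays. The remaining high arrays were 1 of the 4 shared controls and 1 of the 5 DEN controls, so that by Xist the LT groups and the shared controls were not matched for sex, and DEN controls held 1 array unlike the DEN tumor and NTL arrays. In whole tissue, fewer cells of a type and less RNA per cell cannot be told apart.

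The 3 models gave different pictures of the collagen genes. In LT tumors 13 of the 42 members were called higher than in LT NTL and 0 were called lower, with 10 of the 13 at least 2-fold higher. Of all genes tested, 4.27% were called and differed at least 2-fold in either direction, 10.7% were called higher and 9.73% lower in that comparison. In DEN tumors 8 members were called higher and 14 lower than in DEN NTL, against 15.6% of all genes called higher and 16.7% lower. In MYC tumors 1 member was called higher and 8 lower than in MYC NTL, against 11.5% and 10.3% of all genes. The 14 falls in DEN tumors were mostly small: 10 of them were under 0.5 on the log2 scale, and only 3 of the 14 (Col13a1, Col27a1 and Col5a3) were also called lower against DEN controls.

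By gene, Col8a1 was called higher in tumors of all 3 models. Col1a1, Col12a1, Col4a1 and Col4a2 were called higher in DEN and LT tumors, Col4a3, Col4a4 and Col6a6 in DEN tumors, and Col1a2, Col3a1, Col5a2, Col6a1, Col6a2 and Col6a3 in LT tumors. Col15a1 and Col5a1 were called higher in LT tumors and lower in MYC tumors. Col14a1, Col16a1, Col24a1, Col25a1, Col27a1 and Col2a1 were called lower in DEN and in MYC tumors, 8 more members only in the DEN comparison, and 12 members in none of the 3 comparisons. A call in a single comparison does not show a difference between models, which was tested separately.

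**Figure D1:**
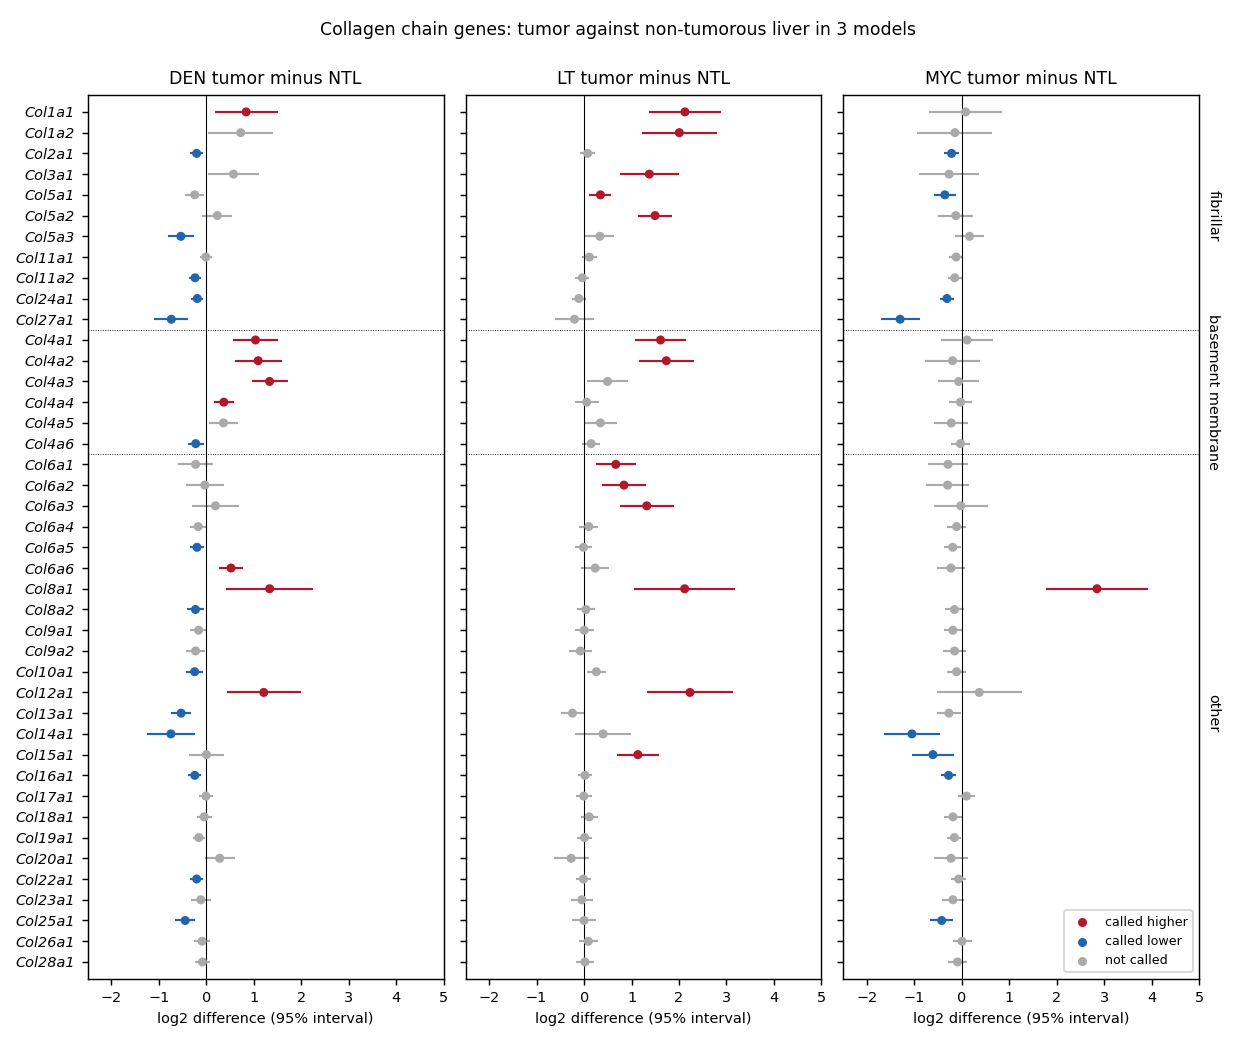
Log2 difference of tumor minus NTL for each of the 42 collagen genes (points) with its 95% interval from the fit (lines), in DEN, LT and MYC panels, grouped into fibrillar, basement membrane and other collagens. Col8a1 lies right of 0 in all panels, at 1.33, 2.12 and 2.85, while no gene called higher in the LT panel is called higher in the MYC panel except Col8a1.

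The LT results lean on a single array. All 13 members called higher in LT tumors had their highest tumor value in LT tumor replicate 1. LT tumor replicate 2 exceeded every LT NTL array for 10 of the 13, and replicate 3 for 8 of the 13. Replicates 1 and 2 carry identifiers with a common stem, so replicate 2 may not be independent of replicate 1. Leaving out replicate 1 may then not leave out its animal, and the main fit counts each array as a separate sample. Without LT tumor replicate 1 the comparison called 8 members, and with only the 8 LT arrays in the fit it called 1 (Col5a2). Of all 18820 genes, the fit of only the 8 LT arrays called 615, beside 3838 in the main fit. Centring each array on its median moved the share of higher among all called genes to 40.8%, against 52.3% without centring.

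Col8a1 encodes a short chain of type VIII collagen, which forms hexagonal networks under endothelial cells and is made by vascular smooth muscle cells. The RefSeq gene lies on chromosome 16, from 57624256 to 57754737 on the minus strand of GRCm38.p6. It stood at 6.51, 5.91, 5.75, 7.25 and 6.11 in DEN tumors, against 4.96, 5.06, 5.05, 4.93 and 4.87 in DEN NTL and 5.15, 4.75, 4.75, 4.80 and 5.00 in DEN controls. Every DEN tumor was above every DEN NTL and control array. In LT tumors the values were 9.15, 7.15 and 5.23, against 5.08, 5.02, 5.10, 5.20 and 4.90 in LT NTL, so that the third tumor lay just above the NTL range and within that of the shared controls. In MYC tumors they were 9.11, 8.65, 5.996, 7.74 and 8.01, against 5.09, 5.25 and 4.83 in MYC NTL and 5.33, 5.09, 4.83 and 4.98 in the shared controls, with no overlap.

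The tumor minus NTL differences were 1.33 ± 0.45 in DEN (adjusted p = 0.0232), 2.12 ± 0.52 in LT (adjusted p = 0.00412) and 2.85 ± 0.52 in MYC (adjusted p = 0.000201), or 2.52-, 4.34- and 7.19-fold. Against controls Col8a1 was likewise higher, by 1.42 ± 0.45, 2.12 ± 0.55 and 2.85 ± 0.48. The call against controls was lost in 3 alternatives in LT (adjusted p up to 0.215) and in 1 in DEN (adjusted p = 0.0595). Without LT tumor replicate 1 the LT difference was 1.13 from NTL (adjusted p = 0.152) and 1.14 from controls (adjusted p = 0.182). Without DEN tumor replicate 4 the DEN difference from NTL was 1.10 (adjusted p = 0.0796). None of the 3 tests between models called a difference in its change. The promoter of the gene called in all 3 models is printed here, from 250 bases before to 50 after the RefSeq start, chr16:57754688-57754987 of GRCm38.p6, read on the minus strand. It holds neither CCAAT nor TATAAA on either strand, 4 matches to the GC box GGGCGG and 60.3% G and C.
Col8a1: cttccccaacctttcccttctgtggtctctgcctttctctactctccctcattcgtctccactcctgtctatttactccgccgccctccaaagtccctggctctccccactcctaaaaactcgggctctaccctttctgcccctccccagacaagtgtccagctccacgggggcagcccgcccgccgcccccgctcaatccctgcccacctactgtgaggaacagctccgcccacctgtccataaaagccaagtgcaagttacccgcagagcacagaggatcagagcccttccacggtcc

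**Figure D2:**
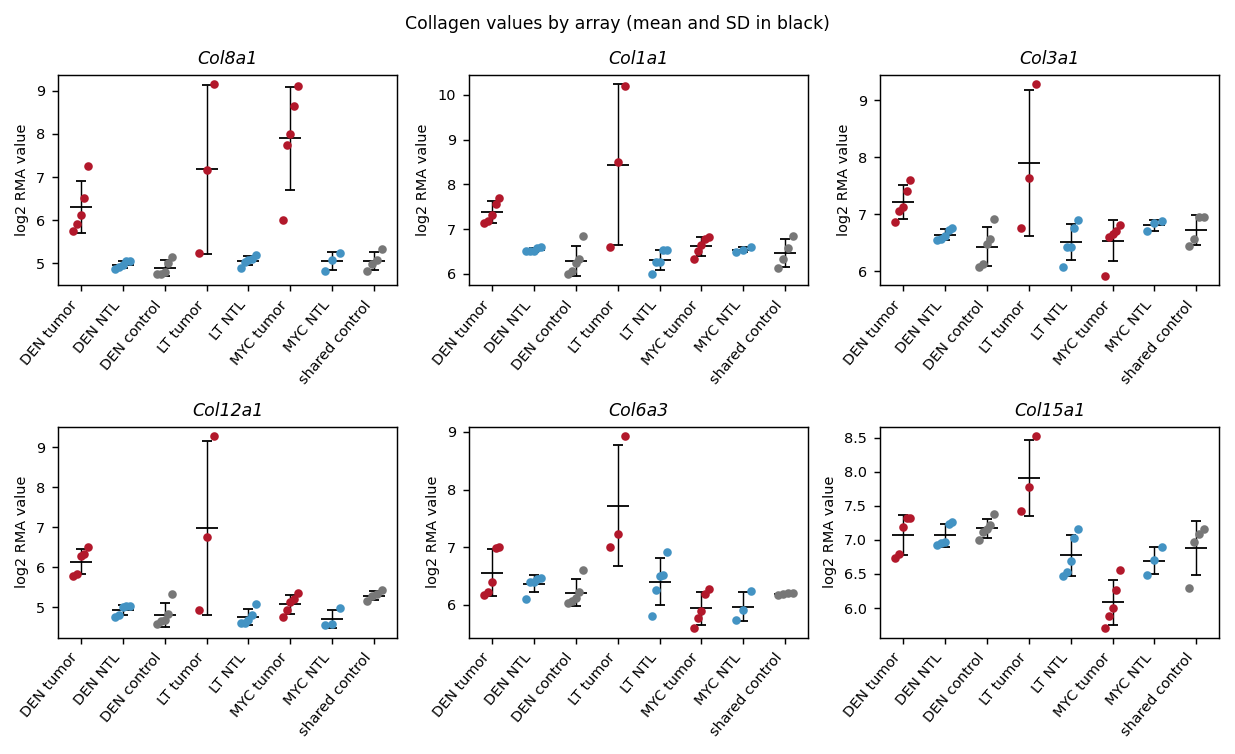
Log2 signal of Col8a1, Col1a1, Col3a1, Col12a1, Col6a3 and Col15a1 on every array (points, in order of value within a group), in the 8 groups, with the group mean and SD (bars). LT tumors are spread widely, with replicate 1 the highest LT tumor in each panel, while the MYC tumors stand apart from their NTL for Col8a1, where they lie between 5.996 and 9.11.

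Among the 11 fibrillar collagens, 5 were called higher and 0 lower in LT tumors, 1 higher and 5 lower in DEN tumors, and 0 higher and 4 lower in MYC tumors, each against NTL. Their median differences were 0.33, -0.19 and -0.15, beside -0.03, -0.04 and -0.03 over all genes, of which 10.7% were called higher and 9.73% lower in LT, 15.6% and 16.7% in DEN and 11.5% and 10.3% in MYC.

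Col1a1 and Col1a2 encode the chains of type I collagen, the main fiber of scars. Col1a1 stood at 7.57, 7.33, 7.14, 7.70 and 7.17 in DEN tumors, against 6.52, 6.58, 6.59, 6.51 and 6.51 in DEN NTL and 6.07, 5.99, 6.85, 6.23 and 6.33 in DEN controls. In LT tumors it stood at 10.21, 8.50 and 6.61, against 6.53, 6.26, 5.99, 6.27 and 6.53 in LT NTL. In MYC tumors it stood at 6.83, 6.64, 6.78, 6.51 and 6.33, against 6.60, 6.54 and 6.48 in MYC NTL and 6.85, 6.34, 6.58 and 6.13 in the shared controls. All DEN and LT tumors lay above their NTL arrays, whereas MYC tumors overlapped theirs.

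The difference was 0.84 ± 0.32 in DEN (adjusted p = 0.0472), 2.12 ± 0.38 in LT (adjusted p = 0.000206, 4.36-fold) and 0.08 ± 0.38 in MYC (adjusted p = 0.91, 95% interval -0.69 to 0.84). The DEN call sits at the threshold: it was lost in 12 alternatives, with adjusted p up to 0.103. Without LT tumor replicate 1 the LT difference was 1.24 (adjusted p = 0.00691).

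Col1a2 rose in LT with a wide spread. It stood at 10.35, 8.35 and 6.77 in LT tumors, against 6.86, 6.40, 6.14, 6.36 and 6.67 in LT NTL, with replicate 3 inside the NTL range, a difference of 2.01 ± 0.39 (adjusted p = 0.000481) that was 1.08 without LT tumor replicate 1 (adjusted p = 0.0162). In DEN tumors it stood at 7.42, 7.34, 6.88, 7.78 and 7.03, against 6.61, 6.73, 6.44, 6.47 and 6.59 in DEN NTL and 6.37, 6.30, 6.90, 6.23 and 6.13 in DEN controls. The DEN tumor and NTL values did not overlap, yet the difference of 0.72 ± 0.34 missed the threshold (adjusted p = 0.0997), and with only the DEN arrays compared in the fit the adjusted p was 0.00434. Against DEN controls Col1a2 was called, at 0.91 ± 0.34 (adjusted p = 0.0389), a call lost in 7 alternatives (adjusted p up to 0.103). Values in MYC tumors were 6.84, 6.56, 6.43, 6.44 and 5.94, against 6.63, 6.65 and 6.48 in MYC NTL and 6.86, 6.41, 6.73 and 6.21 in the shared controls, and overlapped. The Col1a2 promoter, chr6:4505368-4505667 on the plus strand of GRCm38.p6, is shown because the type I chains had the largest fibrillar rises in LT tumors. Its capitals mark CCAAT and the reverse complement ATTGG, with 1 match each, and it holds no TATAAA.
Col1a2: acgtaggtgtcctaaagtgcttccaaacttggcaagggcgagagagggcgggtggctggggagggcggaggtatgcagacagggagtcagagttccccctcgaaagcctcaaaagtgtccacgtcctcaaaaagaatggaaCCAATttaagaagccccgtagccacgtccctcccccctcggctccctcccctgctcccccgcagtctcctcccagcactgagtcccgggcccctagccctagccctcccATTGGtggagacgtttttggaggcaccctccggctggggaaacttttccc

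Col3a1, the chain of type III collagen, which accompanies type I in vessel walls and early scars, lies beside Col5a2 on chromosome 1, with 24624 bases between their RefSeq ranges. Col3a1 stood at 9.28, 7.63 and 6.76 in LT tumors, against 6.90, 6.42, 6.08, 6.42 and 6.75 in LT NTL, so only replicates 1 and 2 exceeded the NTL range. The difference was 1.37 ± 0.31 (adjusted p = 0.00182), and leaving out LT tumor replicate 1 made it 0.68 (adjusted p = 0.0796), which is not called. Its DEN tumor values were 7.41, 7.13, 6.87, 7.60 and 7.05, against 6.61, 6.73, 6.54, 6.56 and 6.76 in DEN NTL and 6.13, 6.08, 6.92, 6.56 and 6.48 in DEN controls. Here tumor and NTL did not overlap, and the difference of 0.57 ± 0.27 was not called (adjusted p = 0.101), while with only the DEN arrays compared in the fit the adjusted p was 0.00618. Against DEN controls Col3a1 was called, at 0.78 ± 0.27 (adjusted p = 0.0248), a call lost in 4 alternatives (adjusted p up to 0.0711). MYC tumors had 6.82, 6.60, 6.70, 6.65 and 5.92, against 6.84, 6.88 and 6.70 in MYC NTL and 6.96, 6.57, 6.94 and 6.45 in the shared controls, with overlap. LT minus MYC was 1.64 ± 0.43 (adjusted p = 0.0127), and 0.95 and not called when LT tumor replicate 1 was left out (adjusted p = 0.0633).

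Type V collagen starts and sets the width of type I fibrils, and its 3 chain genes were called in different comparisons. Col5a2 stood at 7.49, 6.01 and 6.61 in LT tumors, against 5.46, 5.23, 4.88, 5.20 and 5.25 in LT NTL and 5.25, 5.18, 5.10 and 5.11 in the shared controls, with no overlap and a difference from NTL of 1.49 ± 0.18 (adjusted p = 3.96e-06). In DEN tumors it stood at 5.52, 5.704, 5.25, 5.59 and 5.31, against 5.33, 5.14, 5.26, 5.24 and 5.24 in DEN NTL and 5.02, 4.82, 5.31, 5.05 and 5.15 in DEN controls, and MYC tumors had 5.19, 5.16, 4.97, 5.26 and 4.77, against 5.22, 5.23 and 5.14 in MYC NTL. Neither of these 2 differences from NTL was called (0.23 ± 0.16 and -0.13 ± 0.18), while DEN tumors exceeded DEN controls by 0.41 ± 0.16 (adjusted p = 0.0466), a call lost in 8 alternatives (adjusted p up to 0.128). Its rise in LT exceeded the change in DEN (DEN minus LT -1.26 ± 0.24, adjusted p = 0.000739) and that in MYC (LT minus MYC 1.62 ± 0.25, adjusted p = 0.000127).

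Col5a1 differed by 0.34 ± 0.11 in LT (adjusted p = 0.0308), -0.36 ± 0.11 in MYC (adjusted p = 0.0223) and -0.25 ± 0.10 in DEN (adjusted p = 0.0558). Col5a3 stood at 5.56, 5.58, 5.09, 5.36 and 5.24 in DEN tumors, against 6.03, 5.90, 5.79, 5.87 and 5.93 in DEN NTL, and fell there by 0.54 (adjusted p = 0.00193), with no overlap. Its LT tumor values were 5.78, 5.95 and 5.39, against 5.17, 5.82, 5.46, 5.17 and 5.26 in LT NTL and 6.09, 6.06, 5.66 and 5.95 in the shared controls, and MYC tumors had 5.73, 5.61, 5.85, 5.86 and 5.52, against 5.47, 5.63 and 5.56 in MYC NTL, and neither difference was called.

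Col27a1, a fibrillar chain known from cartilage, was the fibrillar gene with the largest called fall in DEN and in MYC. It stood at 5.90, 5.85, 6.10, 6.01 and 5.80 in MYC tumors, against 7.14, 7.56 and 7.01 in MYC NTL and 6.73, 6.66, 6.21 and 6.43 in the shared controls. The tumors were below both, by 1.30 ± 0.20 on the log2 scale below NTL (adjusted p = 2.69e-05) and by 0.58 ± 0.19 below controls (adjusted p = 0.0252); MYC NTL was itself 0.73 ± 0.21 above the controls (adjusted p = 0.0481). DEN tumors had 6.07, 5.94, 5.84, 5.86 and 6.09, against 6.89, 6.46, 6.64, 6.91 and 6.60 in DEN NTL and 6.53, 6.88, 6.39, 6.45 and 6.58 in DEN controls, a difference of -0.74 ± 0.17 (adjusted p = 0.0015). In LT tumors it stood at 6.46, 6.64 and 6.08, against 6.19, 7.61, 6.42, 6.47 and 6.31 in LT NTL, with overlap.

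Col24a1, a fibrillar chain of developing bone, had small called falls: -0.19 ± 0.06 in DEN and -0.32 ± 0.07 in MYC. The DEN call was lost in 5 alternatives (adjusted p up to 0.0717). Its calls against controls were lost in 7 alternatives in LT and 11 in MYC (adjusted p up to 0.197 and 0.157). Col24a1 stood at 5.10, 5.03, 5.15, 5.11 and 4.88 in MYC tumors, against 5.45, 5.37 and 5.28 in MYC NTL. LT tumors had 4.92, 4.97 and 5.09, against 5.19, 5.33, 5.25 and 5.17 in the shared controls. The cartilage chains Col2a1 and Col11a2 had differences of -0.20 ± 0.07 and -0.24 ± 0.06 in DEN, both called, and Col11a1 was not called in any tumor comparison, with differences from NTL between -0.12 and 0.11.

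The 6 type IV chains form 3 head-to-head gene pairs, Col4a1 with Col4a2 on chromosome 8, Col4a3 with Col4a4 on chromosome 1 and Col4a5 with Col4a6 on the X chromosome. In DEN tumors 4 of the 6 were called higher and 1 lower than in NTL (median 0.70, against 15.6% and 16.7% of all genes), and in LT tumors 2 were called higher and 0 lower (median 0.42, against 10.7% and 9.73%). In MYC tumors limma called 0 of them, and 0 had an unadjusted p under 0.05 (median -0.05, against 11.5% and 10.3% of all genes called).

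The promoters of the first pair are shown because both genes rose in DEN and in LT tumors. Col4a1 is read on the minus strand from chr8:11312777-11313076 and Col4a2 on the plus strand from chr8:11312555-11312854 of GRCm38.p6. The starts used for the windows are 21 bases apart, the windows share 78 bases, and the RefSeq gene ranges overlap by 85. The range of Col4a1 ends at 11312889, upstream of the start at 11312826 used for its window. Capitals mark the single CCAAT or ATTGG of each window. Neither holds TATAAA, and G and C make up 74.0% of the Col4a1 and 73.7% of the Col4a2 window.
Col4a1: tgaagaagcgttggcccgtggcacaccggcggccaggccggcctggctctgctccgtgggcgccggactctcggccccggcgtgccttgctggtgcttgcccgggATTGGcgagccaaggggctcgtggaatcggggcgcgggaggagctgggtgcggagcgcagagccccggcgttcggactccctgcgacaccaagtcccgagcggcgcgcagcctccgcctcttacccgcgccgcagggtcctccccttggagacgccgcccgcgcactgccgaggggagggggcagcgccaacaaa
Col4a2: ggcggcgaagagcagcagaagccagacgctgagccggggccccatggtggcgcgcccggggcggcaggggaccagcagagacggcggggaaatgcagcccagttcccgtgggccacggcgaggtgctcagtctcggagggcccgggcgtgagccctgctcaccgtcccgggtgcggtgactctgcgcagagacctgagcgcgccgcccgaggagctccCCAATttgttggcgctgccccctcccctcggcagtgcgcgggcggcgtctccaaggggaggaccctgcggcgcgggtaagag

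Col4a1 and Col4a2 encode the chains of the type IV network present in nearly all basement membranes. Col4a1 stood at 7.68, 7.85, 7.98, 7.80 and 7.92 in DEN tumors, against 6.90, 6.85, 6.74, 6.70 and 6.86 in DEN NTL and 6.31, 6.36, 6.61, 6.71 and 6.76 in DEN controls. LT tumors had 9.39, 8.16 and 6.96, against 6.76, 6.58, 6.53, 6.52 and 6.41 in LT NTL. In MYC tumors it stood at 6.86, 7.46, 7.02, 6.64 and 6.45, against 6.88, 6.75 and 6.69 in MYC NTL and 6.83, 6.86, 6.80 and 6.75 in the shared controls. All DEN and LT tumors were above their NTL and control arrays, and MYC tumors lay on both sides of theirs.

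Col4a2 stood at 7.47, 7.93, 7.93, 7.70 and 7.73 in DEN tumors, against 6.77, 6.57, 6.75, 6.50 and 6.70 in DEN NTL and 6.34, 6.28, 6.51, 6.47 and 6.40 in DEN controls. Its LT tumor values were 9.20, 7.99 and 6.60, against 6.31, 6.27, 6.03, 6.16 and 6.23 in LT NTL. Its MYC tumor values were 6.71, 7.38, 6.72, 6.42 and 6.35, against 6.93, 6.84 and 6.96 in MYC NTL and 6.57, 6.34, 6.53 and 6.44 in the shared controls. The same separation held as for Col4a1, with MYC tumor replicate 2 the highest MYC tumor for both genes.

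The differences from NTL were 1.04 ± 0.23 for Col4a1 and 1.09 ± 0.24 for Col4a2 in DEN (adjusted p = 0.000788 and 0.000812). In LT they were 1.61 ± 0.27 and 1.73 ± 0.28 (adjusted p = 0.000113 and 9.67e-05), and leaving out LT tumor replicate 1 made them 1.00 and 1.10 (adjusted p = 0.0032 and 0.00296). In MYC they were 0.11 ± 0.27 and -0.20 ± 0.28, with 95% intervals of -0.43 to 0.65 and -0.77 to 0.38. The LT rise exceeded the MYC change for both (LT minus MYC 1.501 ± 0.38 and 1.93 ± 0.40, adjusted p = 0.0088 and 0.00207). For Col4a1 this was 0.89 when LT tumor replicate 1 was left out (adjusted p = 0.0386), and it was not called with only the groups compared in the fit (adjusted p = 0.0928). DEN minus MYC was called for Col4a2 (1.29 ± 0.37, adjusted p = 0.0166) and not for Col4a1 (0.93 ± 0.35, adjusted p = 0.0747).

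Col4a3 and Col4a4, which with Col4a5 form the network of the kidney's glomerular basement membrane, rose in DEN tumors. Col4a3 stood at 5.95, 7.07, 7.07, 6.65 and 7.05 in DEN tumors, against 5.53, 5.32, 5.40, 5.43 and 5.44 in DEN NTL and 5.39, 5.21, 5.10, 5.09 and 5.33 in DEN controls. All DEN tumors lay above every NTL and control array, with replicate 1 the lowest. LT tumors had 5.40, 5.07 and 6.61, against 5.17, 5.35, 5.21, 5.25 and 5.01 in LT NTL, so replicates 1 and 3 exceeded the NTL range, and replicate 3, the highest by far, was the LT tumor with the lowest Col4a1 and Col4a2. MYC tumors had 5.12, 5.08, 5.20, 5.20 and 5.08, against 5.30, 5.27 and 5.05 in MYC NTL and 5.16, 5.36, 5.24 and 5.36 in the shared controls, with overlap.

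The DEN difference was 1.33 ± 0.19 (adjusted p = 1.63e-06, 2.52-fold), against 0.49 ± 0.21 in LT (adjusted p = 0.104) and -0.07 ± 0.21 in MYC (adjusted p = 0.86). It was larger than the MYC change (DEN minus MYC 1.40 ± 0.28, adjusted p = 0.000884). It was also called larger than the LT change (DEN minus LT 0.84 ± 0.28, adjusted p = 0.0446), a call lost in 18 alternatives: dropping LT tumor replicate 2 gave 0.53 (adjusted p = 0.231), and dropping LT tumor replicate 3 gave 1.30 (adjusted p = 0.000126). Col4a4 stood at 5.11, 5.78, 5.96, 5.27 and 5.64 in DEN tumors, against 5.24, 5.07, 5.11, 5.28 and 5.22 in DEN NTL. Replicates 2, 3 and 5 were above the NTL range and replicates 1 and 4 were not, and the difference was 0.37 ± 0.11 (adjusted p = 0.00759). LT tumor replicate 3 was the highest LT tumor for Col4a4 too, at 5.51, against 5.03 to 5.22 in LT NTL, and the LT difference was not called (0.05 ± 0.12). The RefSeq ranges of the pair overlap by 114 bases.

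On the X chromosome, Col4a5 stood at 5.41, 4.46, 5.71, 5.07 and 5.02 in DEN tumors, against 4.75, 4.72, 4.88, 4.74 and 4.77 in DEN NTL. It differed by 0.36 ± 0.15 (adjusted p = 0.0665) from NTL, which was not called, and by 0.43 ± 0.15 (adjusted p = 0.03) from controls, which was. Col4a6 fell in DEN tumors by 0.22 (adjusted p = 0.0359) against NTL and was not called against controls.

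**Figure D3:**
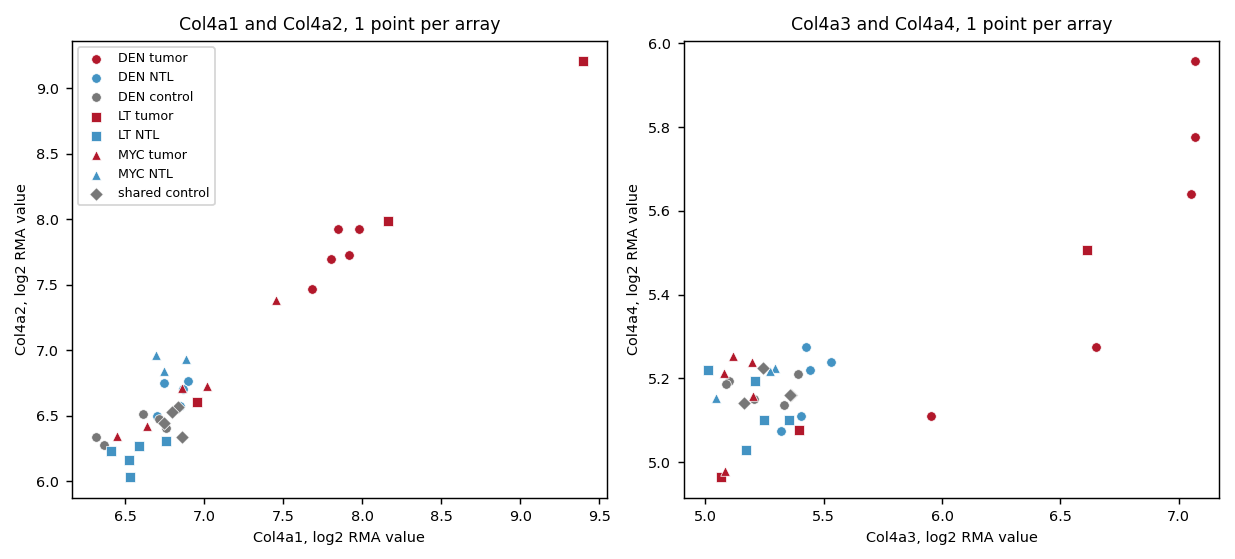
Log2 signal of Col4a2 against Col4a1 (left) and of Col4a4 against Col4a3 (right), with 1 point per array, by group. On the left LT tumor replicate 1 lies highest, at 9.20 for Col4a2, and the DEN tumors lie between 7.68 and 7.98 for Col4a1, while on the right the DEN tumors and LT tumor replicate 3 leave the other arrays.

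Type VI collagen, which forms beaded filaments close to cells, rose in LT tumors through its classical chains. Col6a3 stood at 8.92, 7.23 and 7.001 in LT tumors, against 6.91, 6.26, 5.80, 6.50 and 6.52 in LT NTL and 6.20, 6.18, 6.20 and 6.18 in the shared controls. All LT tumors lay above every NTL array. In DEN tumors it stood at 7.01, 6.40, 6.22, 6.99 and 6.17, against 6.46, 6.47, 6.39, 6.11 and 6.40 in DEN NTL and 6.23, 6.02, 6.61, 6.06 and 6.13 in DEN controls, where only replicates 1 and 4, which share an identifier stem, exceeded the NTL range. MYC tumors had 6.28, 5.90, 5.76, 6.19 and 5.60, against 6.24, 5.91 and 5.74 in MYC NTL, with overlap.

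The LT differences were 1.32 ± 0.28 for Col6a3, 0.84 ± 0.22 for Col6a2 and 0.67 ± 0.20 for Col6a1 (adjusted p = 0.0011, 0.00735 and 0.0196), and that of Col6a3 was 0.72 without LT tumor replicate 1 (adjusted p = 0.0498). Col6a2 stood at 8.28, 6.71 and 6.71 in LT tumors, and Col6a1 at 7.99, 6.64 and 6.64. For both, only replicate 1 exceeded the LT NTL range, whose highest value was 6.87 for Col6a2 and 6.91 for Col6a1. The rises of Col6a3, Col6a2 and Col6a1 were larger than the MYC changes (LT minus MYC 1.34 ± 0.39, 1.14 ± 0.32 and 0.96 ± 0.29, adjusted p = 0.0234, 0.0163 and 0.027), of which that of Col6a3 was not called without LT tumor replicate 1 (0.74, adjusted p = 0.136). Its DEN minus LT difference of -1.13 ± 0.37 (adjusted p = 0.0392) lost its call in 12 alternatives and was -0.53 with that array left out (adjusted p = 0.26). Col6a6, a chain that can stand in for the third, followed another course: it rose in DEN tumors to 5.95, 5.78, 6.17, 6.37 and 6.26, against 5.66, 5.55, 5.60, 5.51 and 5.62 in DEN NTL, by 0.52 ± 0.12 (adjusted p = 0.00142), with no overlap, and by 0.78 ± 0.12 against controls. Its DEN change exceeded that in MYC (0.75 ± 0.19, adjusted p = 0.00571). Col6a5 fell in DEN by 0.20 (adjusted p = 0.0441), and Col6a4 was not called in any tumor comparison.

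Of the 8 FACIT collagens, which sit on the surface of fibrils, Col12a1 and Col14a1 moved in opposite directions in DEN tumors. Col12a1, known from tendon and tumor stroma, stood at 5.83, 5.77, 6.28, 6.34 and 6.50 in DEN tumors, against 5.01, 4.81, 4.77, 5.04 and 5.04 in DEN NTL and 4.66, 4.67, 5.32, 4.83 and 4.58 in DEN controls. In LT tumors it stood at 9.27, 6.76 and 4.93, against 5.07, 4.82, 4.60, 4.61 and 4.69 in LT NTL. In MYC tumors it stood at 4.93, 5.35, 5.14, 4.75 and 5.20, against 4.98, 4.57 and 4.59 in MYC NTL and 5.43, 5.15, 5.27 and 5.32 in the shared controls. DEN tumors were separate from NTL, LT tumor replicate 3 lay within the NTL range, and MYC tumors overlapped.

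The differences from NTL were 1.21 ± 0.38 in DEN (adjusted p = 0.0148), 2.23 ± 0.44 in LT (adjusted p = 0.000591, 4.69-fold) and 0.36 ± 0.44 in MYC (adjusted p = 0.61). Without LT tumor replicate 1 the LT value was 1.09 (adjusted p = 0.0133), and against the shared controls it was then 0.56 (adjusted p = 0.267) and no longer called. LT minus MYC was 1.87 ± 0.62 (adjusted p = 0.0462), a call lost in 18 alternatives, and dropping LT tumor replicate 1 gave 0.72 (adjusted p = 0.233), while dropping LT tumor replicate 3 gave 2.89 (adjusted p = 3.52e-05).

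Col14a1 is a FACIT made by stellate cells and fibroblasts of normal liver. It stood at 8.52, 7.33, 7.95, 8.16 and 6.91 in MYC tumors, against 8.88, 8.75 and 8.84 in MYC NTL and 9.33, 8.97, 9.23 and 8.85 in the shared controls, and every MYC tumor was below all of them. Its DEN tumor values were 8.55, 8.61, 8.15, 9.19 and 7.96, against 9.32, 9.33, 9.41, 9.20 and 8.94 in DEN NTL and 9.01, 9.11, 8.86, 9.08 and 8.89 in DEN controls, where replicate 4 alone reached the NTL range. Its LT tumor values were 10.22, 8.52 and 9.53, against 9.28, 9.04, 8.77, 8.93 and 9.11 in LT NTL, scattered around it.

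It differed by -1.05 ± 0.29 in MYC (adjusted p = 0.00822) and -0.75 ± 0.25 in DEN (adjusted p = 0.0207), while the LT difference of 0.40 ± 0.29 was not called. The LT change was called above that in MYC (LT minus MYC 1.45 ± 0.41, adjusted p = 0.0176), which was not called once LT tumor replicate 1 was dropped (1.05, adjusted p = 0.0966) or with only the groups compared in the fit (adjusted p = 0.089). It was also, by a call lost in 13 alternatives, above that in DEN (DEN minus LT -1.15 ± 0.38, adjusted p = 0.0414), which was -0.75 without LT tumor replicate 1 (adjusted p = 0.208). The DEN fall was 0.66 without tumor replicate 3 (adjusted p = 0.0595) and 0.61 without tumor replicate 5 (adjusted p = 0.0714). Col16a1 had smaller falls, of 0.24 in DEN and 0.28 in MYC (adjusted p = 0.00505 and 0.00841). Col22a1 fell in DEN by 0.20 (adjusted p = 0.021), and Col9a1, Col9a2, Col19a1 and Col20a1 were not called in any tumor comparison.

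The multiplexins Col15a1 and Col18a1 link basement membranes to the matrix around them, and the end of the Col18a1 protein is released as endostatin. Col15a1 stood at 8.52, 7.42 and 7.78 in LT tumors, against 6.69, 6.53, 6.47, 7.16 and 7.02 in LT NTL and 6.97, 7.09, 7.15 and 6.30 in the shared controls, with all tumors higher. Its MYC tumor values were 5.89, 6.56, 6.27, 5.997 and 5.71, against 6.49, 6.89 and 6.70 in MYC NTL, and mostly lower. In DEN tumors it stood at 7.32, 6.79, 7.19, 6.73 and 7.33, against 7.27, 6.95, 6.93, 7.23 and 6.96 in DEN NTL and 6.99, 7.11, 7.21, 7.37 and 7.17 in DEN controls, with replicates 1 and 5 above and replicates 2 and 4 below the NTL range.

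The differences from NTL were 1.13 ± 0.21 in LT (adjusted p = 0.000387), -0.61 ± 0.21 in MYC (adjusted p = 0.039) and 0.00 ± 0.19 in DEN (95% interval -0.38 to 0.38). LT minus MYC was 1.74 ± 0.30 (adjusted p = 0.000402) and DEN minus LT -1.13 ± 0.28 (adjusted p = 0.00725). The MYC call against NTL was lost in 6 alternatives, the replicate block among them (adjusted p = 0.0685), while the fall against the shared controls was 0.80 ± 0.20 (adjusted p = 0.00372).

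Col18a1, by contrast, was not called in any of the 9 comparisons. It stood at 9.75, 9.89, 10.04, 9.54 and 9.94 in DEN tumors, against 9.91, 9.83, 9.87, 9.92 and 9.85 in DEN NTL and 10.01, 9.84, 9.83, 9.83 and 9.81 in DEN controls. In LT tumors it stood at 9.68, 10.04 and 9.90, against 9.80, 9.77, 9.61, 9.84 and 9.82 in LT NTL. In MYC tumors it stood at 9.72, 9.63, 9.85, 9.65 and 9.68, against 9.82, 10.00 and 9.87 in MYC NTL and 9.71, 9.91, 9.96 and 9.72 in the shared controls. The 95% intervals of its tumor minus NTL differences were -0.20 to 0.11 in DEN, -0.08 to 0.29 in LT and -0.37 to -0.01 in MYC (adjusted p = 0.134 there), and tumor and NTL overlapped in each model.

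The partner chain Col8a2 did not follow Col8a1: it fell in DEN by 0.23 (adjusted p = 0.0347) and was not called in LT (0.04 ± 0.10) or MYC (-0.16 ± 0.10). Col10a1, the short chain of growth plate cartilage, fell in DEN by 0.25 (adjusted p = 0.0273), and its DEN and LT changes differed (DEN minus LT -0.50 ± 0.13, adjusted p = 0.00979). Among the 4 transmembrane collagens, Col13a1, a chain of cell adhesion sites, stood at 5.63, 5.22, 5.12, 5.31 and 5.31 in DEN tumors, against 5.95, 5.60, 5.86, 5.73 and 6.12 in DEN NTL and 5.86, 5.91, 5.65, 5.80 and 5.77 in DEN controls. In the other models it stood at 5.18, 5.47 and 5.58 in LT tumors, against 5.63, 5.79, 5.66, 5.61 and 5.59 in LT NTL, and at 5.46, 5.31, 5.22, 5.82 and 5.41 in MYC tumors, against 5.56, 5.81 and 5.78 in MYC NTL. It fell in DEN by 0.53 (adjusted p = 0.000187) and was not called in LT (-0.25 ± 0.12) or MYC (-0.27 ± 0.12). Col25a1, first found in amyloid plaques, differed by -0.45 ± 0.11 in DEN and -0.43 ± 0.12 in MYC (adjusted p = 0.00145 and 0.0115). Col17a1 and Col23a1, and the members Col26a1 and Col28a1 that belong to no larger group, were not called in any tumor comparison.

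Few collagen genes were called between non-tumorous and control liver. In DEN NTL against DEN controls limma called 0 of 42 members, with 6 at an unadjusted p under 0.05, and 0.197% of all genes were called. The differences lay between -0.26 and 0.26 on the log2 scale, and 38 of the 42 were above 0, with a median of 0.13 beside 0.01 over all genes. In LT NTL 1 member was called, against 2.41% of all genes. This was Col5a3, at 5.17, 5.82, 5.46, 5.17 and 5.26 in LT NTL, against 6.09, 6.06, 5.66 and 5.95 in the shared controls, a fall of 0.56 (adjusted p = 0.025) whose size was 0.305 (adjusted p = 0.283) with a term for arrays with high Xist. In MYC NTL 1 member was called, against 3.83% of all genes. It was Col27a1, given above, and its call was lost without any single array of the MYC NTL and shared control groups, left out in turn. Against controls, tumors gave nearly the same counts as against NTL in 2 models: 12 higher and 1 (Col24a1) lower in LT (8.78% and 7.73% of all genes) and 1 higher and 8 lower in MYC (10.2% and 10.3%). In DEN tumors 12 members were higher and 3 lower than in controls (15.0% and 15.6% of all genes), so fewer were lower than against NTL.

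The classes were set beside each other array by array. In DEN tumors the median difference of the 6 type IV chains from the NTL mean was 0.58, 0.81, 1.05, 0.65 and 0.77 in the 5 tumors, against -0.09 to 0.09 in NTL. For the 11 fibrillar collagens it was 0.04, -0.13, -0.25, -0.09 and -0.18 in the same tumors, against -0.04 to 0.08 in NTL. All DEN tumor arrays were thus above NTL in the type IV median, while 4 of 5 were below the NTL range in the fibrillar median. These 5 arrays may come from fewer animals: averaging those with a common identifier stem left 3 values. The fibrillar median hides a split, with 4 of the 11 fibrillar differences above 0 and 7 below. Those above were Col1a1, Col1a2, Col3a1 and Col5a2, at 0.84, 0.72, 0.57 and 0.23, of which only Col1a1 was called. Of the 14 members called lower in DEN, 12 were dimmer on average than the median gene, as were 29 of all 42 members. In LT tumors the fibrillar median was 0.40, 0.07 and 0.22 and the type IV median 0.48, 0.05 and 0.39, against -0.06 to 0.02 and -0.13 to 0.05 in NTL. In MYC tumors the fibrillar median was -0.06, -0.15, -0.16, -0.15 and -0.43, against -0.09 to 0.06 in NTL. With Col15a1 and Col18a1 counted as basement membrane collagens, the DEN median of that class was 0.36.

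**Figure D4:**
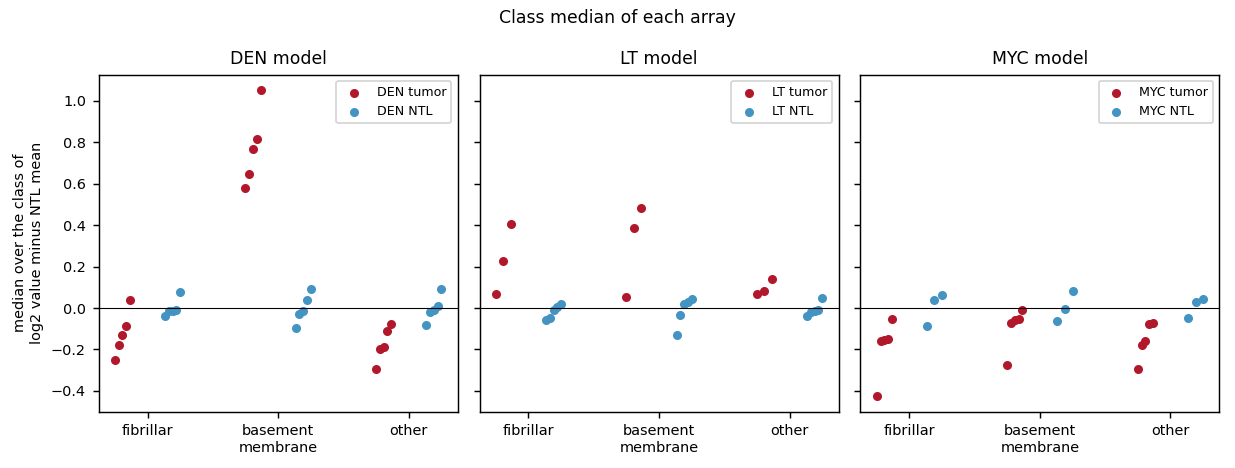
Median over the fibrillar (11), basement membrane (6) and other (25) collagen genes of each array's log2 difference from its model's NTL mean, with 1 point per array, for tumor and NTL in DEN, LT and MYC. The type IV medians of DEN tumors lie between 0.58 and 1.05, above all NTL arrays.

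Tests of the tumor minus NTL changes between models called 14 members with a more positive change in LT than in MYC and 0 with a more negative one (5.76% and 6.6% of all genes). Between DEN and LT, the change was more positive in DEN for 1 member and in LT for 10 (6.3% and 7.61% of all genes), and between DEN and MYC, it was more positive in DEN for 3 and in MYC for 1 (7.12% and 7.98% of all genes). The 14 were 6 fibrillar, 2 type IV and 6 other collagens, and the 2 with the largest difference were Col1a2 (LT minus MYC 2.15 ± 0.55, adjusted p = 0.00981) and Col1a1 (2.05 ± 0.53, adjusted p = 0.0111), and with LT tumor replicate 1 left out these were 1.22 and 1.16 (adjusted p = 0.0379 and 0.0478). Without that array 9 of the 42 were called between LT and MYC and 5 between DEN and LT. High Xist marks 7 of the 8 LT arrays and none of the DEN and MYC tumor and NTL arrays, so model and Xist move together in these tests. With a term for arrays with high Xist, 13 members were called between LT and MYC, 11 between DEN and LT and 4 between DEN and MYC. Of all 18820 genes, 2349, 2661 and 2895 were called with that term, beside 2326, 2618 and 2841 without it.

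The other genes of the collagen pathway were counted beside the share of all genes called higher and lower, which was 10.7% and 9.73% in LT, 15.6% and 16.7% in DEN and 11.5% and 10.3% in MYC. These counts carry no test of their own. Of 18 measured genes for prolyl and lysyl hydroxylation, folding and secretion, 6 were higher and 1 lower in LT tumors, 5 and 1 in DEN and 1 and 1 in MYC, each against NTL. Sparc, a collagen-binding matrix protein, rose by 1.32 ± 0.24 in DEN and 1.34 ± 0.28 in LT (adjusted p = 7.7e-05 and 0.000926). Plod2, the lysyl hydroxylase of collagen telopeptides, rose by 1.64 ± 0.37 in LT (adjusted p = 0.0022), and Serpinh1, the collagen chaperone, by 0.66 ± 0.26 in DEN (adjusted p = 0.0453). The collagen galactosyltransferase Colgalt2 rose in LT by 1.94 ± 0.23 (adjusted p = 3.54e-06) and fell in MYC by 0.72 (adjusted p = 0.0221).

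Of 20 genes for procollagen processing, cross-linking and fibril assembly, 8 were higher and 1 lower in LT, 5 and 5 in DEN, and 1 and 8 in MYC. The cross-linking enzymes Lox and Loxl2 rose in LT by 2.54 ± 0.48 and 1.77 ± 0.37 (adjusted p = 0.000417 and 0.000964), with LT tumor SDs of 2.43 and 1.69. The lowest LT tumor lay within the range of LT NTL for Lox (4.04, against an NTL maximum of 4.09), for Loxl2 (6.35, against 6.41) and for Plod2 (5.00, against 5.09). Adamts14, a procollagen N-proteinase, rose in DEN by 2.24 ± 0.16 (adjusted p = 1.56e-11). Decorin (Dcn), a proteoglycan that binds fibrils, fell by 1.64 in MYC and 1.23 in DEN (adjusted p = 0.000367 and 0.000815), and lumican (Lum) fell by 1.37 in MYC and rose by 1.41 ± 0.33 in LT (adjusted p = 0.00313 and 0.00267).

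The basement membrane partners of type IV collagen, laminins, nidogens and perlecan among them, had 7 of 14 measured genes higher and 3 lower in DEN tumors, 7 and 0 in LT, and 1 and 2 in MYC. Nid1, the linker between laminin and type IV networks, rose by 2.901 ± 0.24 in DEN and 1.75 ± 0.27 in LT (adjusted p = 1.49e-10 and 6.44e-05). Lama5, a laminin chain of mature vessels and epithelia, rose by 1.90 ± 0.21 in DEN and 1.15 ± 0.24 in LT, where the lowest tumor (5.66) was below every NTL array, and Pxdn, which cross-links type IV collagen, by 1.12 ± 0.21 in LT (adjusted p = 0.000454). Lama1 fell in DEN by 1.04 and in MYC by 0.92.

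Genes of collagen degradation and uptake were higher in 6 of 13 in DEN, 9 in LT and 3 in MYC, with 0, 0 and 1 lower. Mmp14, a membrane-bound collagenase, rose by 1.39 ± 0.17 in DEN and 0.77 ± 0.20 in MYC, and Mmp12, the macrophage elastase, by 3.13 ± 0.48 in MYC (adjusted p = 2.26e-05). Among 8 collagen receptors, Ddr1, a receptor tyrosine kinase of epithelial cells, rose by 2.54 ± 0.17 in DEN and 1.01 ± 0.20 in LT (adjusted p = 3.73e-12 and 0.000497), with the lowest LT tumor (5.94) below the NTL maximum (6.01), while Ddr2, its mesenchymal counterpart, fell by 0.55 in DEN and 1.10 in MYC. The receptor counts were 2 higher and 1 lower in DEN, 3 and 0 in LT, and 0 and 2 in MYC, with 15.6% and 16.7%, 10.7% and 9.73%, and 11.5% and 10.3% of all genes called in those models. Of 11 fibrogenic signals 8 were higher in DEN, 7 in LT and 3 in MYC, with 0 lower in each, and Pdgfb, a mitogen of stellate cells, rose by 1.32 ± 0.21, 1.92 ± 0.25 and 1.03 ± 0.25.

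Markers of cells that make collagens, and of other liver cells, were counted too, and their part in the collagen results was not tested. Of 12 stellate cell markers, 0 were called higher and 7 lower in DEN tumors, 1 and 0 in LT, and 0 and 10 in MYC, each against NTL. Of all genes, 15.6% were called higher and 16.7% lower in DEN, 10.7% and 9.73% in LT, and 11.5% and 10.3% in MYC, and the marker counts that follow stand beside the same shares. Their summed signal, on the log2 scale, was 10.2 to 11.6 in MYC tumors, against 12.2 to 12.4 in MYC NTL, 11.2 to 12.6 in DEN tumors, against 12.4 to 12.6 in DEN NTL, and 11.0 to 12.8 in LT tumors, against 12.2 to 12.6 in LT NTL. Lrat, which stores vitamin A in stellate cells, fell in DEN by 1.59, and Ecm1 in MYC by 2.43.

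Of 8 myofibroblast markers, 7 were higher and 0 lower in LT, 1 and 1 in DEN, and 0 and 0 in MYC. The summed signal was 9.36 to 12.0 in LT tumors, against 8.81 to 9.21 in LT NTL, 9.59 to 11.2 in DEN tumors, against 9.11 to 9.41 in DEN NTL, and 8.47 to 9.67 in MYC tumors, against 8.93 to 9.23 in MYC NTL. Acta2, smooth muscle actin, rose by 2.57 ± 0.53 in LT and 1.77 ± 0.46 in DEN. Portal fibroblast and mesothelial markers had 5 of 9 higher in LT, 1 higher and 1 lower in DEN, and 0 called in MYC.

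Of 10 vascular endothelial markers, 7 were higher in DEN, 7 in LT and 2 in MYC, with 0, 0 and 3 lower, and their summed signal was 12.3 to 12.6 in DEN tumors, against 11.8 to 12.0 in DEN NTL, and 12.1 to 13.2 in LT tumors, against 11.6 to 11.8 in LT NTL. In MYC tumors the summed signal of these vascular markers was 11.1 to 11.8, against 11.4 to 11.6 in MYC NTL. Esm1, an endothelial proteoglycan, rose in tumors of all 3 models, by 2.66 ± 0.30, 2.46 ± 0.34 and 2.84 ± 0.34, while Plvap differed by -1.16 ± 0.19 in MYC. Sinusoidal endothelial markers had 1 of 8 higher and 3 lower in DEN, 0 and 5 in LT, and 0 and 3 in MYC. Of 5 measured cholangiocyte markers, 3 were higher in DEN, among them Sox9 by 1.93 ± 0.24, and 0 were called in LT and MYC. Kupffer cell markers were lower in 6 of 6 in DEN, 2 in LT and 1 in MYC, and of 8 hepatocyte markers 1 was higher and 2 lower in DEN, 1 lower in LT and 3 lower in MYC.

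Across the 34 members with a RefSeq promoter window of 300 bases (GRCm38.p6), 4 short motifs were counted on both strands. Each member was counted by its first listed window, while the shares beside the counts are over all windows, where a gene may have several. The GC box GGGCGG was present in 21 of 34, with 35.7% of all 32851 windows holding it. CCAAT was present in 11 of 34 (37.4% of all windows), TATAAA in 5 of 34 (13.6%) and the AP-1 motif TGANTCA in 1 of 34 (7.81%). Of the 5 type IV chains with a window 4 held GGGCGG, 3 CCAAT and 0 TATAAA. These matches describe letters in a window only.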

How the data were processed

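Liver RNA of 35 mice or tissue pieces in 8 groups was hybridised to Affymetrix Mouse Gene 1.1 ST arrays, 1 per sample. The deposited values are log2 signals per probe set that the authors made with RMA, per the submitters' processing notes; the sources used here give neither the version of RMA nor the set of arrays it was run on together. Of 35556 probe sets 21218 are annotated to 1 gene symbol, 1881 to several and 12457 to none, and only the first kind was used, with the brightest per gene (18820 genes; 4 of the 42 members had more than 1). The members and all gene lists were chosen with earlier results of these data known. Group means of all 8 groups were fitted together with limma 3.58.1 in R 4.3.3 (lmFit, eBayes), so that they share 1 estimate of the spread, and p-values were adjusted over 18820 genes by Benjamini-Hochberg in each of 9 group comparisons and 3 comparisons of changes. On simulated data over 18820 genes, the fit recovered 92%, 88% and 90% of genes raised by 1 on the log2 scale in tumor against NTL of DEN, LT and MYC, and 46%, 48% and 50% of genes raised by 0.5. The simulated noise was normal, independent between arrays and of equal spread in all groups. These shares therefore do not describe a group with a wider spread, such as LT tumors, or arrays from the same animal. Values by array are given for a fixed set of 10 members and, in each group comparison, for the 3 that rose most and the 2 that fell most among those called, and in each comparison of changes for the 2 with the largest difference in each direction (17 members). For Col24a1, Col13a1 and Col5a3 the values of some groups are left out. Of other lists, up to 3 called genes with the largest change per model are eligible to be named. Alternatives were single groups in the fit, median-centred arrays, mean probe sets, a filter on dim genes, moderation with trend, a term for high Xist (above 9), averaged arrays of a mouse identifier stem, multiplexins counted with type IV, a replicate block, and leaving out each array. Replicate numbers come from the sample titles. Their deviations from the group means correlated above 0.1 in every same-numbered pair only between LT tumors and the shared controls (0.23, 0.14 and 0.17), where the block called the same number of members (13). Array number limits the precision, and p-values measure only the spread between these samples. Scan dates were not used here, so batches were not examined. Col7a1 and Col9a3 were left out, as their probe sets are annotated to a second gene.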

Additional observations from a re-analysis of the deposited data

Results flagged for a closer look

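Of 102 sets of 4 to 10 arrays of 1 group examined for the 17 members, 5 held an array far from the others by Dixon's test at the 95% level, and chance gives about 1 in 20. Col18a1 stood at 10.014 in replicate 1 of DEN controls, with the others at 9.811 to 9.844. Col18a1 stood at 9.614 in replicate 3 of LT NTL, with the others at 9.773 to 9.837. Col27a1 stood at 7.607 in replicate 2 of LT NTL, with the others at 6.191 to 6.468. Col3a1 stood at 5.919 in replicate 5 of MYC tumors, with the others at 6.598 to 6.817. Col6a3 stood at 6.108 in replicate 4 of DEN NTL, with the others at 6.393 to 6.475.

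The tumor minus NTL changes of the models differed by limma's test of the difference for 29 gene and model pairs, given on the log2 scale with the adjusted p in brackets. DEN minus LT was -0.503 for Col10a1 (0.00979), -1.146 for Col14a1 (0.0414), -1.13 for Col15a1 (0.00725), 0.84 for Col4a3 (0.0446), -0.371 for Col4a6 (0.0458), -0.589 for Col5a1 (0.00828), -1.262 for Col5a2 (0.000739), -0.868 for Col5a3 (0.00396), -0.893 for Col6a1 (0.0253), -0.873 for Col6a2 (0.0454) and -1.128 for Col6a3 (0.0392). DEN minus MYC was 1.29 for Col4a2 (0.0166), 1.402 for Col4a3 (0.000884), -0.697 for Col5a3 (0.016) and 0.752 for Col6a6 (0.00571). LT minus MYC was 1.865 for Col12a1 (0.0462), 1.452 for Col14a1 (0.0176), 1.744 for Col15a1 (0.000402), 2.046 for Col1a1 (0.0111), 2.154 for Col1a2 (0.00981), 1.097 for Col27a1 (0.0114), 1.644 for Col3a1 (0.0127), 1.501 for Col4a1 (0.0088), 1.929 for Col4a2 (0.00207), 0.703 for Col5a1 (0.00463), 1.623 for Col5a2 (0.000127), 0.961 for Col6a1 (0.027), 1.142 for Col6a2 (0.0163) and 1.342 for Col6a3 (0.0234). With LT tumor replicate 1 left out, the counts were 5 for DEN minus LT and 9 for LT minus MYC. Among the 17 members given by array, leaving it out ended the calls of Col14a1, Col4a3 and Col6a3 in DEN minus LT (-0.75, 0.69 and -0.53) and of Col12a1, Col14a1, Col3a1 and Col6a3 in LT minus MYC (0.72, 1.05, 0.95 and 0.74).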

How the results depend on the processing

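Of 76 single-gene results, none reversed under any alternative: 695 of 826 values with an array left out and 546 of 608 values under other alternatives stayed on their side of the threshold, and 131 and 62 lost the call. Fitting only the groups compared moved the counts of called members most: to 1 for LT tumor against NTL, 5 for MYC tumor against NTL, 0 for LT tumor against controls, 3 for MYC NTL against controls, 5 for the change in DEN minus LT, 10 for DEN minus MYC and 4 for LT minus MYC. Of all 18820 genes that fit called 615 for LT tumor against NTL, beside 3838 in the main fit, and 0 against controls, beside 3107. It called 3431 for MYC tumor against NTL (main fit 4106) and 1537 for MYC NTL against controls (main fit 721). For the changes it called 1748 in DEN minus LT (main fit 2618), 2822 in DEN minus MYC (2841) and 1231 in LT minus MYC (2326). By class that fit gave 3 type IV chains in DEN and 0 in LT, 1 fibrillar in LT and 2 in MYC, and 0 other collagens in LT and 3 in MYC. That fit has fewer samples to estimate the spread from, and takes it from those groups alone. The main fit gives all groups 1 shared spread per gene, although LT tumors could spread widely. Col1a1 ranged from 6.61 to 10.21 in LT tumors, against 5.99 to 6.53 in LT NTL. The standard errors of the main fit for LT tumors thus do not show their own spread. A term for high Xist gave 8 in LT tumor against controls and 0 in LT NTL against controls. Of all 18820 genes, 1273 and 174 were called in these comparisons with the term, beside 3107 and 454 without it. With Col15a1 and Col18a1 counted as basement membrane collagens, 1 was called in MYC, and the DEN median was 0.36. Centring arrays put the median of other collagens in LT at -0.010. The cause of these shifts was not tested further. The replicate block changed no count by over 1.5 times (23 in DEN, 13 in LT and 7 in MYC tumor against NTL); the pairing by number ended 4 single-gene calls, of Col15a1 in MYC tumor against NTL (adjusted p = 0.0685), Col24a1 in MYC tumor against controls (0.088), Col4a3 in DEN minus LT (0.0601) and Col12a1 in LT minus MYC (0.0652). With 1 array left out in turn, counts of called members ranged from 8 to 15 in LT tumor against NTL and 6 to 14 against controls (lowest without LT tumor replicate 1), 5 to 9 in MYC tumor against controls (lowest without MYC tumor replicate 5 or shared control 2), 0 to 1 in LT NTL and 0 to 0 in MYC NTL against controls, 5 to 17 for DEN minus LT (without LT tumor replicates 1 and 3) and 9 to 17 for LT minus MYC. By class against NTL they ranged from 3 to 6 fibrillar in DEN, 6 to 12 other in DEN (lowest without DEN tumor replicate 4), 3 to 6 fibrillar in LT, 3 to 7 other in LT and 2 to 4 fibrillar in MYC. The LT fibrillar median ranged from 0.15 to 0.40 (lowest without LT tumor replicate 1).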
